A study of Homo sapiens with 3 samples.

Results

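The 10 genes described here encode the interchangeable subunits of the BAF chromatin remodelling complex, and were taken by name from the deposited tables. All 10 of them were found among the 78932 genes listed. The material was iCell GlutaNeurons (iGluta), glutamatergic neurons that a supplier derives from human induced pluripotent stem cells. RNA came from 3 samples of genotype WT, left untreated, after 3 weeks of culture. It was sequenced as polyadenylated, strand-specific libraries, in order to learn the make-up of the culture. The samples form 1 group, with no progenitor or undifferentiated culture beside it, so the data give levels at 1 time and not a change over time.

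BAF complexes (also called mSWI/SNF) use the energy of ATP to slide or evict nucleosomes. Work in mouse brain showed that several subunits are exchanged when dividing neural progenitors become neurons. The actin-related protein ACTL6A (BAF53a) gives way to ACTL6B (BAF53b), the PHD-finger proteins PHF10 (BAF45a) and DPF2 (BAF45d) are joined or replaced by DPF1 (BAF45b) and DPF3 (BAF45c), and SS18 gives way to SS18L1 (CREST). The catalytic ATPase is either SMARCA4 (BRG1) or SMARCA2 (BRM). In mouse, ACTL6B and SS18L1 serve the growth of dendrites.

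Levels are in TPM, transcript shares corrected for length and scaled to the same total in each library. Values are mean ± SD over 3 libraries (n = 3). The libraries held 34732725 to 60092991 estimated counts. The labels do not say that the samples were separate cultures, so every spread and p-value measures these samples only and may be technical. The transmitter genes go partly against the label. SLC17A6, a vesicular glutamate transporter, was at 80.7, 105 and 160.1 TPM and SLC17A7, another, at 11.7, 9.87 and 19.8. The GABA genes GAD1 (203, 234 and 118 TPM), GAD2 (83.1, 99.6 and 40.2) and SLC32A1 (181, 175 and 86.4) were also above 1 TPM. GAD1 exceeded SLC17A6 in replicates 1 and 2 but not in 3, and all 3 GABA genes were lowest in replicate 3, where SLC17A6 was highest. The levels of the BAF genes are those of a culture that held RNA of both kinds of transmitter genes. Replicate 3 also stood apart with 10.6% of its TPM in mitochondrial genes against 4.25 and 4.01% in replicates 1 and 2. In bulk RNA, fewer cells of a type and less RNA per cell cannot be told apart.

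All 10 genes were expressed above 1 TPM, the 4 neuronal subunits, the 4 progenitor subunits and both ATPases alike (limma, adjusted p from 6.89e-11 to 7.5e-05). Among all genes tested 40.6% were above this bar and 45.1% below it. The median of the 10 was 53.8 TPM, beside 0.73 TPM over all 38992 genes tested, noncoding ones included. Among protein-coding genes with any TPM, the 10 ran from the percentile 34.2 (DPF3) to 96.6 (SMARCA4), with SS18 at 46.3. All 10 were also above the bar without each replicate in turn.

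**Figure D1:**
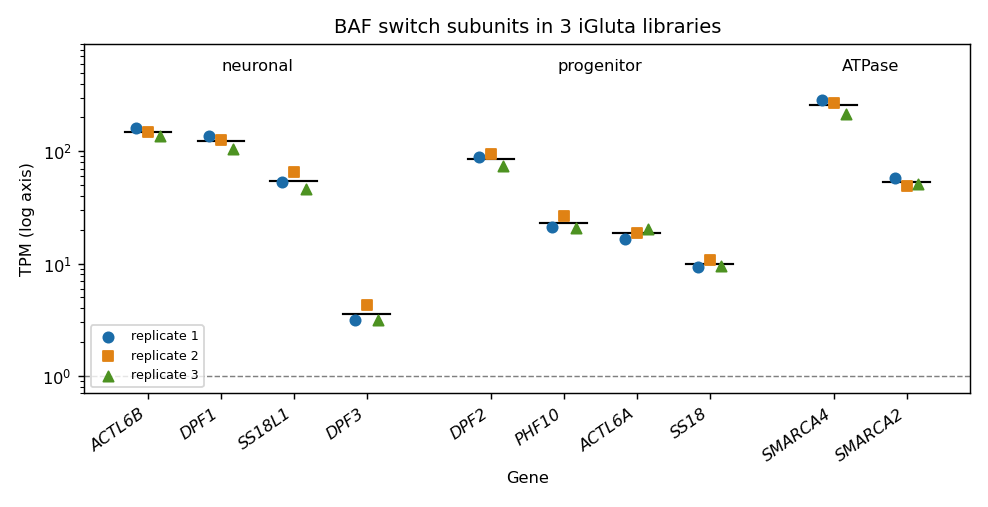
TPM of the 10 BAF switch genes on a log axis, grouped by role, with a point for each of 3 libraries, a bar for the mean and a dashed line at 1 TPM. SMARCA4 was the highest at 257 TPM, DPF3 the lowest at 3.53 TPM, and DPF2 stood far above the other progenitor subunits.

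Of the actin-related pair, the neuronal gene was the higher. ACTL6B was at 162, 149 and 138 TPM in replicates 1, 2 and 3, from 4370, 5667 and 3302 estimated counts. ACTL6A was at 16.7, 18.9 and 20.3 TPM, from 526, 786 and 433 counts. The 2 genes did not overlap in any library. ACTL6B made up 90.6, 88.7 and 87.2% of the pair, a mean of 88.8 ± 1.74%. The log2 ratio averaged 3.0 ± 0.26, above 0 in all 3, which is 7.99-fold. Its exact 2-sided sign-flip permutation p was 0.25 (0.269 adjusted over the 14 ratios computed), the smallest that 3 libraries allow, and so it was for every ratio given here but ARID1B over ARID1A. On counts scaled to the library total (CPM), without length correction, the mean was 7.65-fold. ACTL6B stood at the percentile 93.2 of the 17804 protein-coding genes with any TPM, and ACTL6A at 56.9.

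ACTL6A lies on chromosome 3 (from 179562926 to 179588407, GRCh38.p14), and its last bases overlap MRPL47. ACTL6B lies on chromosome 7 (from 100643097 to 100656448). In mouse, the microRNA strand miR-9-3p (miR-9*) and miR-124 lower ACTL6A through its 3' UTR as neurons form. The mature miR-9-3p of RefSeq (GRCh38.p14) is shown with its seed, bases 2 to 8, in capitals, followed by the matches to that seed (AGCTTTA, plus strand of the transcript only) found in the longest annotated 3' UTRs of the 10 genes in GENCODE release 29 (GRCh38):
hsa-miR-9-3p: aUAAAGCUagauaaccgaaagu
ACTL6A, chr3:179588044-179588073, plus strand: caccttacgtttcatAGCTTTAgtatactc
ACTL6A, chr3:179588133-179588162, plus strand: acttaaattttttaaAGCTTTAactggctc
PHF10, chr6:169708834-169708863, minus strand: tactggtctgctaagAGCTTTAaatggaag
The 3' UTR of ACTL6A is 398 bases long and held 2 matches. Of 1871 3' UTRs of like length (from 0.8 times its length up to the inverse of that), 2.73% held any. PHF10, with 3187 bases, held 1 match, which 25.9% of 2255 UTRs of like length hold, and the other 8 genes, ACTL6B among them, held 0. Matches to miR-124 were not searched. A match of letters is a description and does not show that the site is used.

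The mature microRNAs are not polyadenylated and were not measured. Their host transcripts were uneven. MIR124-2HG was at 54.3, 76.7 and 70.5 TPM and MIR124-1HG at 45.7, 44.3 and 40.8 TPM in replicates 1, 2 and 3. MIR9-1HG was far lower at 1.82 ± 0.26 TPM. The host of MIR9-2 (LINC00461) at 1.9 ± 1.14 TPM and MIR9-3HG at 0.52 ± 0.17 TPM were undecided against 1 TPM. Of these 5 host genes 3 were above the bar, and 2 without replicate 1, without replicate 2 or on CPM, where MIR9-1HG was undecided. A low level of a host transcript does not give the level of its microRNA, since the host RNA is cut to release it.

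REST, which represses neuronal genes outside neurons together with RCOR corepressors, was below 1 TPM. It stood at 0.04, 0.12 and 0.16 TPM, from 3, 19 and 19 counts (limma, adjusted p = 3.32e-04). Of the 8 genes in the list of REST and its corepressors 7 were above the bar and REST was the 1 below. The highest were RCOR3 (59.1 ± 9.08 TPM), SIN3A (36.8 ± 5.45) and RCOR2 (24.3 ± 2.08).

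The known REST site joins the letters AGCACC and GGACAG with a short gap of 2 bases, and variants with a wider gap are also known. Both words were searched on both strands in the RefSeq promoter windows (GRCh38.p14, 250 bases before to 50 after a start), which cover 9 of the 10 genes. ACTL6A had no window. In the windows shown, capitals mark either word. ACTL6B, DPF1 and SS18L1 are the neuronal subunits with a mean above 50 TPM:
ACTL6B, chr7:100656399-100656698, minus strand: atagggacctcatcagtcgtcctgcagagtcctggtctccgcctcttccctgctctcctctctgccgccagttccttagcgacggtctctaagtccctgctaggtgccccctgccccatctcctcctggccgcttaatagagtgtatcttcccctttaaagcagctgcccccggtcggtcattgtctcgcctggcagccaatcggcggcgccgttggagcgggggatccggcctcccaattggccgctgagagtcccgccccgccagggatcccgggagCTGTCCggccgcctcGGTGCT
DPF1, chr19:38229646-38229945, minus strand: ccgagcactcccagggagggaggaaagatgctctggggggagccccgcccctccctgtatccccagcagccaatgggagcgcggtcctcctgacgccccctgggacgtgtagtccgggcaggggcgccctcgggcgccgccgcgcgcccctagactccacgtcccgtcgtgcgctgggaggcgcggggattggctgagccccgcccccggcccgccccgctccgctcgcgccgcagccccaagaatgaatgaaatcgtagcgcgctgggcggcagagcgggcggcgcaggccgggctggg
SS18L1, chr20:62143519-62143818, plus strand: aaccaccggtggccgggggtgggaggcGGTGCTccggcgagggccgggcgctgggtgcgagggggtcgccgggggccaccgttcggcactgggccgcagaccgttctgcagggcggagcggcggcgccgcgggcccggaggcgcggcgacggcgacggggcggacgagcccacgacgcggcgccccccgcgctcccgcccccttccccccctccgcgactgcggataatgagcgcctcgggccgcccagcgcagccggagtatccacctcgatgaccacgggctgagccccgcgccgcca
ACTL6B held both words, each on the reverse strand, so that the printed letters are their complements read backwards, at bases 280 to 285 and 295 to 300 of the window, so 9 bases lay between them. This arrangement occurred in 13 of 35116 windows, or 0.037%, and was searched after it had been seen. The words 2 bases apart occurred in 20 windows, or 0.057%, and in none of the windows of these genes. SS18L1 held AGCACC once, also on the reverse strand, as 15.9% of all windows do on either, and DPF1 held neither word. The words were not confined to neuronal subunits. Windows of DPF3 and SMARCA4 also held AGCACC, and windows of SS18, SMARCA4 and SMARCA2, not shown here, held GGACAG. DPF2 and PHF10 held neither. GGACAG alone occurred in 20.5% of windows. These matches are letters only, and binding was not measured.

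Of the SS18 pair, the neuronal gene was again the higher. SS18L1, a coactivator that responds to calcium, was at 53.1, 64.7 and 46.0 TPM in replicates 1, 2 and 3. SS18, its ubiquitous relative, was at 9.25, 10.8 and 9.43 TPM. Every SS18L1 value was above every SS18 value. SS18L1 made up 85.2, 85.7 and 83.0% of the pair, a mean of 84.6 ± 1.43%. The log2 ratio was 2.45 ± 0.16, or 5.46-fold, in 3 of 3 libraries, and 7.29-fold on CPM. SS18L1 lies on chromosome 20 (from 62143769 to 62182514) and SS18 on chromosome 18 (from 26016253 to 26091219).

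The PHD-finger genes did not follow a single order. DPF1, found in neuronal complexes, was at 138, 127 and 105 TPM. DPF3, its neuronal relative, was at 3.13, 4.28 and 3.17 TPM and was the lowest of the 10 genes. DPF2, present in most cell types, was at 89.3, 94.6 and 74.2 TPM, and PHF10, a subunit of the PBAF form of the complex, was at 21.0, 26.7 and 20.9 TPM. DPF1 exceeded DPF3 34.2-fold (log2 5.09 ± 0.29) and PHF10 5.37-fold (log2 2.43 ± 0.25), with the same sign in every library. On CPM these were 8.11-fold and 2.29-fold.

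DPF1 exceeded DPF2 by less, 1.43-fold or 0.52 ± 0.10 on the log2 scale. On CPM the log2 ratio was 0.05 and within 2 SD of 0. DPF1 and DPF3 together made up 56.1, 51.9 and 53.3% of the summed level of the 4 genes. Their log2 ratio over PHF10 and DPF2 was 0.22 ± 0.12 and less than 2 SD from 0. On CPM the ratio turned to -0.32 ± 0.14, a share of 44.5 ± 2.41%, so the balance of the 4 genes depended on length correction. PHF10 was below DPF2, with a log2 ratio of -1.91 ± 0.15 on TPM and -1.14 ± 0.17 on CPM. DPF1 lies on chromosome 19 (from 38211006 to 38229695) and DPF2 on 11 (from 65333852 to 65354262). PHF10 lies on 6 (from 169703902 to 169724500), where it overlaps C6orf120, and DPF3 on 14 (from 72609034 to 72894101), where it overlaps RGS6.

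**Figure D2:**
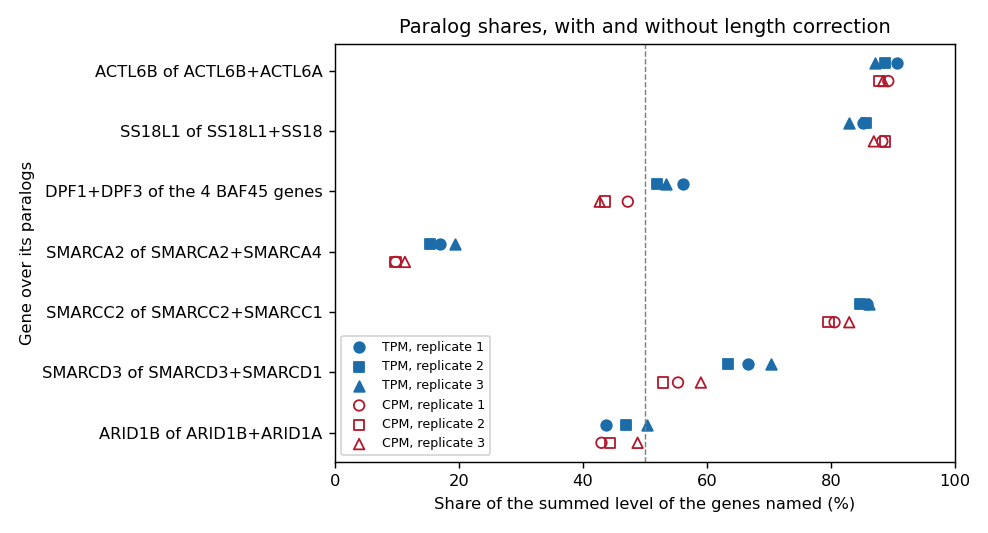
Share of the summed level of the genes named, in percent, for each of 3 libraries, on TPM (filled) and on CPM (open), with a dashed line at 50%. ACTL6B and SS18L1 were above 80% on both scales, SMARCA2 below 20%, and the DPF1 and DPF3 share lay on either side of 50%.

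Summed, the 4 neuronal subunits (ACTL6B, DPF1, DPF3 and SS18L1) reached 356, 345 and 292 TPM in replicates 1, 2 and 3. The 4 progenitor subunits (ACTL6A, PHF10, DPF2 and SS18) reached 136, 151 and 125 TPM. The neuronal sum was the larger in every library and held 70.6 ± 1.46% of the total. The log2 ratio was 1.27 ± 0.10, or 2.41-fold, and 1.9-fold on CPM. DPF2 alone supplied most of the progenitor sum.

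The ATPases were not assigned a neuronal or a progenitor role, so their ratio gives no direction of a switch. SMARCA4, the highest of the 10 genes, was at 286, 271 and 214 TPM. SMARCA2 was at 58.2, 49.1 and 51.5 TPM, below SMARCA4 in every library. SMARCA2 made up 17.2 ± 2.06% of the pair, with a log2 ratio of -2.27 ± 0.21. On CPM the share was 10.3 ± 0.88% and the log2 ratio -3.13 ± 0.13. SMARCA4 stood at the percentile 96.6 of protein-coding genes and SMARCA2 at 79.0. SMARCA4 lies on chromosome 19 (from 10961030 to 11062273) and SMARCA2 on 9 (from 2015347 to 2193620).

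Ordered by TPM, the genes ran SMARCA4, ACTL6B, DPF1, DPF2, SS18L1, SMARCA2, PHF10, ACTL6A, SS18 and DPF3. Neighbours differed in 3 of 3 libraries by over 2 SD, except SS18L1 and SMARCA2, whose log2 difference of 0.03 ± 0.31 changed sign, and PHF10 and ACTL6A (0.29 ± 0.23). By CPM, SS18L1 moved to rank 2 and ACTL6B to rank 4, while SMARCA4 kept the first place and DPF3 the last. Neighbours that differed on TPM were thus turned around. SS18 (14.7 ± 0.49 CPM) stood above ACTL6A (12.8 ± 0.30). DPF1 (100 ± 14.9) stood above ACTL6B (98.6 ± 6.76) on the mean, though not in replicate 3.

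The gap between the scales comes from the length by which RSEM divides, and that length can be read from the 2 tables. The ratio of count to TPM was put in bases with 159 to 288 genes per library that have 1 transcript of known length. The implied length is the mean over a gene's transcripts, weighted by their estimated TPM. It was 1449 ± 29 bases for ACTL6B and 1510 ± 162 for ACTL6A, so this pair was hardly moved by length. SS18L1 came to 3998 ± 73 bases and SS18 to 3049 ± 22. DPF1 came to 1743 ± 24 bases, DPF2 to 2341 ± 54 and PHF10 to 3849 ± 8.

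DPF3 stood out with 7836, 7783 and 5349 bases in replicates 1, 2 and 3. GENCODE release 29 lists no coding DPF3 transcript over 4520 bases, but of the 14 DPF3 transcripts named in the files 11 are in that release. The long implied length divides its 525, 966 and 308 counts, and on CPM DPF3 (12.6 ± 3.61) was close to ACTL6A (12.8 ± 0.303).

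SMARCA2 stood out in the other direction, with 1772, 2226 and 2049 bases. Its longest coding transcript in GENCODE release 29 has 7061 bases. SMARCA4 came to 3173, 3613 and 3716 bases, against at most 5791. Of the 72 SMARCA2 transcripts named with the data 64 are in GENCODE release 29, which lists 42 coding ones. The implied length covers all of a gene's transcripts, coding or not. RefSeq gives SMARCA2 4 promoter windows. In GENCODE release 29, 6 of the 42 coding transcripts, of 424 to 6853 bases, start within 500 bases of the first start. Another 14, of 616 to 2242 bases, start within 500 bases of the last, which lies far inside the gene, and 19 start near none of the 4 windows. These 2 windows are shown to set the outer start beside the inner one, and neither holds a REST word:
SMARCA2 first start, chr9:2015097-2015396, plus strand: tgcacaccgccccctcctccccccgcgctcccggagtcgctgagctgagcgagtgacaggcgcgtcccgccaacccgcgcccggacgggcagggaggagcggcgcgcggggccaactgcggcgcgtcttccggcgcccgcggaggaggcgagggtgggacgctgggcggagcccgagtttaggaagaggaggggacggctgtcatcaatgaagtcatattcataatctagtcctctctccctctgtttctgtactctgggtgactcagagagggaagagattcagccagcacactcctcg
SMARCA2 internal start, chr9:2158214-2158513, plus strand: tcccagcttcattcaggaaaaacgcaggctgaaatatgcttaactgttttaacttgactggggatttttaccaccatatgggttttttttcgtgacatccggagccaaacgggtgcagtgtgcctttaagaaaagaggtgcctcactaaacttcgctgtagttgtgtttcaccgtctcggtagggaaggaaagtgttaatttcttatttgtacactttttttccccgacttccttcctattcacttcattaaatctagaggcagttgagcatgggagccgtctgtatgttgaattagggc
The first window had 66.7% G or C and 30 CpG, and the internal one 43.0% and 9, beside medians of 58.7% and 14 over all windows. No value per transcript was given, so the share of SMARCA2 RNA from each start, or from noncoding transcripts, was not tested. A short transcript made from the internal start would lack the first part of the protein, and the gene's TPM counts it in full.

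**Figure D3:**
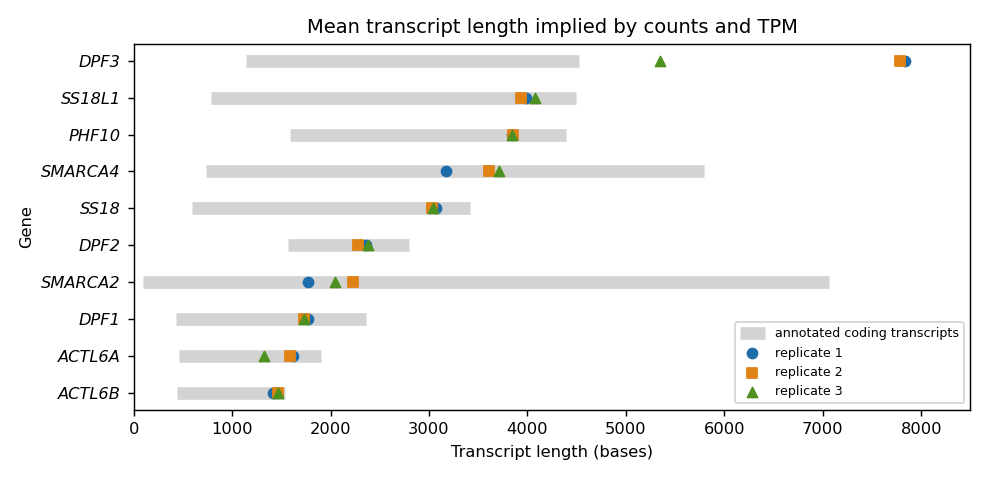
Mean transcript length in bases implied by counts and TPM for each of 3 libraries (points), beside the span from the shortest to the longest coding transcript of GENCODE release 29 (grey bars). SMARCA2 lay near 2015 bases, well short of 7061, and DPF3 lay beyond the 4520 bases of its longest listed transcript.

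The biological coefficient of variation of these genes, estimated with edgeR on counts, ran from 0.111 (SMARCA4) to 0.221 (DPF3) with a median of 0.123, beside a median of 0.177 over all 19089 genes. Of the 10 genes 9 were below the common value of 0.188, as were 53.4% of all. The gene above it was DPF3, the lowest of the 10 by TPM. The genes compared were not matched for level. Without replicate 3 the medians were closer, 0.104 and 0.116. Replicate 3 lay outside the range of replicates 1 and 2 for 7 of 10 genes, beside 75.9% of the 18192 genes with a mean of at least 1 TPM. On TPM it was higher for ACTL6A and lower for ACTL6B, DPF1, SS18L1, PHF10, DPF2 and SMARCA4. On CPM the direction held for DPF1, SS18L1, DPF2 and SMARCA4 only. There ACTL6A was lowest in replicate 3 (12.8, 13.1 and 12.5). ACTL6B (106, 94.3 and 95.1) and PHF10 (41.0, 48.5 and 41.5) lay inside the range. DPF3 was lowest and SMARCA2 highest in replicate 3 on CPM. On TPM none of the 10 moved by over 1.5-fold, a size that 6.88% of the 18192 genes passed upward and 12.2% downward. The difference was 0.19 on the log2 scale for ACTL6A and -0.38 for SMARCA4, beside a median of -0.13 over all these genes. Without replicate 3 the log2 ratios were 3.12 for ACTL6B over ACTL6A, 2.54 for SS18L1 over SS18, -2.38 for SMARCA2 over SMARCA4 and 0.23 for DPF1 and DPF3 over PHF10 and DPF2.

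**Figure D4:**
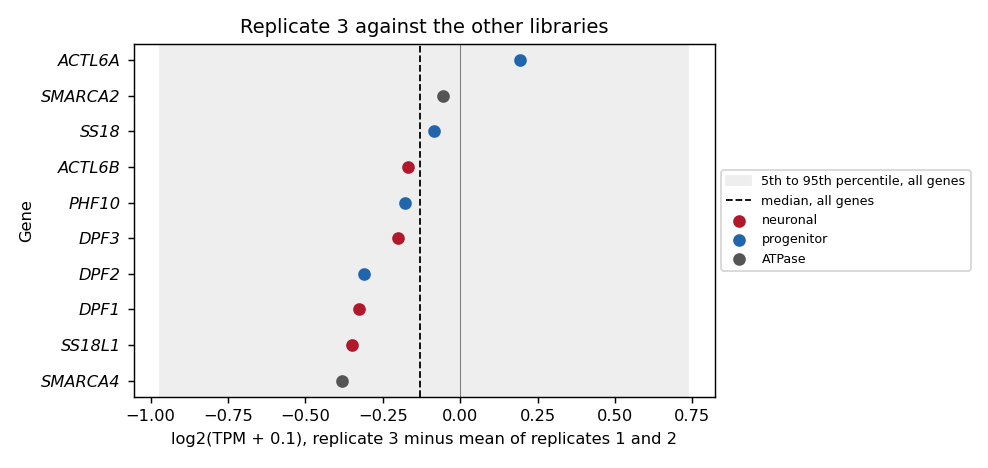
Difference of log2(TPM + 0.1) between replicate 3 and the mean of replicates 1 and 2 for each of the 10 genes, colored by role, with the median (dashed) and the 5th to 95th percentile (grey, -0.97 to 0.74) of 18192 genes. All 10 genes lay inside the grey range, from -0.38 (SMARCA4) to 0.19 (ACTL6A).

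The other BAF subunits were expressed as well. Of 21 such genes 20 were above 1 TPM and BCL11B (1.14 ± 0.33 TPM) was undecided, with a median of 51.3 TPM. The 11 core genes were led by ACTB (3876 ± 131 TPM), the actin also used by the cytoskeleton, SMARCB1 (212 ± 10.3) and SMARCD3 (207 ± 7.94). SMARCC2 (BAF170), a scaffold subunit, was at 133, 143 and 136 TPM and its paralog SMARCC1 (BAF155) at 22.1, 25.8 and 21.8. Their log2 ratio was 2.56 ± 0.09 and 2.10 on CPM. SMARCD3 (BAF60c) exceeded SMARCD1 (108, 117 and 85.7 TPM) with a log2 ratio of 1.01 ± 0.23. On CPM that ratio was 0.33, within 2 SD of 0.

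Of the 8 subunits that define the forms of the complex, all were above the bar. ARID1A (82.3 ± 22.7 TPM) and ARID1B (72.1 ± 16.3), alternatives in the canonical form, led them. Their log2 ratio, ARID1B over ARID1A, was -0.36, -0.18 and 0.02 and did not keep a sign (exact permutation p = 0.5). The third was BRD7 (58.5 ± 7.46 TPM), of the PBAF form. BCL11A (3.7 ± 0.63 TPM), a zinc-finger partner of BAF, stood above BCL11B on TPM (log2 ratio 1.64 ± 0.18), but on CPM the mean was -0.18.

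Among 16 ATPase genes of other remodellers all were above 1 TPM, with a median of 42.8 TPM, led by CHD4 (199 ± 39.1), CHD3 (177 ± 6.93) and SMARCA1 (85.9 ± 8.67). CHD5, the neuronal member of the NuRD ATPases, stood at 66.5, 79.7 and 74.4 TPM, below CHD4 in every library, with a log2 ratio of -1.42 ± 0.34 on TPM and -0.51 ± 0.22 on CPM. SMARCA4 was above CHD4 on the mean of TPM, and their difference was not tested.

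Markers of other cells set the frame for the progenitor subunits, which dividing cells also express. All 10 pan-neuronal markers were above the bar, led by STMN2 (2449 ± 327 TPM), TUBB3 (1592 ± 225) and NEFL (498 ± 45.3). Of 10 neural progenitor markers 5 were above, VIM (170.0 ± 83.8 TPM), PAX6 (72.3 ± 22.1), NES (56.8 ± 27.6), FABP7 and SOX9, 2 were below and 3, SOX1 and SOX2 among them, undecided. With any 1 replicate left out 4 were above, and on CPM 6 were. The summed level of the 10 ran from 276 to 439 TPM, highest in replicate 3. That rise lay mostly in VIM (123, 120 and 267 TPM) and NES (38.1, 43.9 and 88.5). FABP7 (27.5, 22.1 and 31.2), SOX9 (1.49, 1.56 and 2.78) and HES1 (0.03, 0.1 and 0.38) were also highest in replicate 3. PAX6 (84.5, 85.5 and 46.8), SOX1 and SOX2 were lowest there, and HES5 and NOTCH1 lay inside the range of the others. Of 9 proliferation markers 3 were above, PCNA (52.4 ± 10.3 TPM), CCNB1 (7.13 ± 2.61) and MCM2 (6.5 ± 2.24), and 6 were below. Only 2 were above without replicate 2. The sum of the 9 ran from 49.8 to 79.1 TPM, lowest in replicate 3. MKI67, a defining marker of dividing cells, was at 0, 0.06 and 0.1 TPM. Of 6 astrocyte markers 1 was above, S100B (2.11 ± 0.46 TPM), a call lost without replicate 1 or 3 (0 above), ahead of SLC1A3 (1.11 ± 0.86) and AQP4 (0.84 ± 0.04), with sums of 4.03 to 6.14 TPM. On CPM, S100B was undecided and AQP4 was above. Of 6 pluripotency markers 2 were above, DNMT3B (6.64 ± 0.91 TPM) and LIN28A (3.32 ± 0.59), POU5F1 was at 0.06 ± 0.07, and NANOG, ZFP42 and TDGF1 were listed at 0, with sums of 8.55 to 11.6 TPM. The part of such cells in the levels of ACTL6A, PHF10, DPF2 and SS18 was not tested.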

How the data were processed

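Polyadenylated RNA of 3 iGluta samples was measured. The authors deposited gene-level estimated counts and TPM from RSEM on GRCh38.p14, per the submitters' processing notes; no source used here names the aligner, annotation release, filters or strand setting. Of the 10 members 5 had whole counts in all 3 libraries, and overlapping genes may share reads. No library copied another (chi-square per degree of freedom at least 25.1).

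Each gene's deposited TPM was set against 1 TPM with limma 3.58.1 (log2(TPM + 0.1), eBayes with trend, 2-sided), Benjamini-Hochberg adjusted over 38992 genes with any TPM, at 0.05; differences of low genes are understated. The fit was tested on simulated data. No ratio can pass 0.05, so one is said to differ where 3 libraries share its sign and the mean is over 2 SD from 0. Estimated counts were rounded for edgeR 4.0.16 (TMM, 19089 genes) and DESeq2 1.42.0, and divided by library totals for CPM. Implied lengths used genes with at least 200 counts and 1000 bases.

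The members and lists were chosen with earlier results of these data known. Of 101 list genes 2, LINC00461 and TDGF1, were matched by gene ID. Named genes are the members, REST, the ratios' genes and the 3 highest of each other list (all of lists of 5 or fewer). MKI67, SOX1, SOX2, FABP7, SOX9, HES1, HES5, NOTCH1, NANOG, ZFP42, TDGF1 and the transmitter genes were named after their values were seen. RefSeq (GRCh38.p14) gave gene positions. Pseudocounts, scalings, filters, the bar and left-out replicates were varied.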

Additional observations from a re-analysis of the deposited data

How the results depend on the processing

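All 10 members were above the bar under each of the 12 alternatives (2 other pseudocounts, CPM scaled in 3 ways, TPM without mitochondrial genes, a mean count of at least 10, no trend and each replicate left out), except that with a bar of 5 TPM DPF3 was below it (-0.51 on the log2 scale). The log2 ratios of ACTL6B over ACTL6A, SS18L1 over SS18, SMARCA2 over SMARCA4 and the 4 neuronal over the 4 progenitor subunits kept their sign and stayed over 2 SD from 0 under every alternative run; with a replicate left out they ran from 2.86 to 3.12, 2.39 to 2.54, -2.38 to -2.17 and 1.21 to 1.31. DPF1 and DPF3 over PHF10 and DPF2 did not hold: it turned to -0.32 on CPM and to -1.08 with geometric means, which give the low DPF3 full weight. With a replicate left out it ran from 0.15 to 0.27, over 2 SD from 0 without replicate 1 (0.15) or 2 (0.27). ARID1B over ARID1A was over 2 SD from 0 without replicate 3 (-0.27), but not without replicate 1 (-0.08) or 2 (-0.17). BCL11A over BCL11B turned to -0.18 on CPM, within 2 SD of 0. Beyond length, which TPM divides by and CPM does not, the cause was not tested. The median coefficient of variation of the members was 0.141, 0.140 and 0.104 without replicates 1, 2 and 3, 0.127 without the filter and 0.115 with DESeq2. No paired analysis was possible because the series has 1 group. Among the members DPF3 had few counts (308 to 966), and REST had 3 to 19.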
